A study of Mus musculus with 8 samples.

Results

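The accessible regions of mouse chromosome 12 were followed along its length in ATAC-seq peak lists of 8 libraries. The members were chosen by chromosome, which was itself selected on the share of peaks there in 1 library, BM8. Peaks of all 8 libraries that overlapped by at least 1 bp were merged into 183194 regions, of which 177824 lay on the 19 autosomes and 7928 on chromosome 12. Because the share of BM8 chose the chromosome, the shares below are a description without a test.

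The libraries came from cultured PyMT tumor derived cell lines of mice labelled as strain FBV/N, in which the polyomavirus middle T oncogene drives mammary tumors. Cells were either WT or Lats1-CKO, with Lats1, a kinase of the Hippo pathway, conditionally deleted. Sorting took CD49f-high cells, with EpCAM-high ones kept as luminal and EpCAM-low ones as basal-like, and both were grown further in culture before ATAC-seq. The 4 groups had 2 libraries each, namely WT luminal (BM1, BM5), WT basal-like (BM2, BM6), Lats1-CKO luminal (BM3, BM7) and Lats1-CKO basal-like (BM4, BM8). All cells of all groups carried the PyMT transgene, no treatment is listed, and the labels give neither the driver of the deletion, the ages of the mice nor the line behind each library. The study speaks of biological replicates, but the labels do not tie a library to a tumor, so p-values measure only the spread between these libraries.

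The lists held from 14753 (BM3) to 99022 (BM8) peaks, and BM3 stood apart, since the next smallest list, BM6, held 51497. They give no read counts, so the depth of each library is unknown, and depth and accessibility cannot be told apart in the presence of a peak. Each peak carries a score from the peak caller, which was used as its percentile within its own library, where 100 is the highest. A peak within 1 kb of the transcription start site (TSS) of Lats1 was called in 7 libraries, including 3 of 4 Lats1-CKO libraries, which does not check the deletion, as the deleted part is not in the labels. A promoter peak here lies within 1 kb of any annotated transcript start of a gene, which can be inside the gene. Of 3 luminal markers (Krt8, Krt18 and Epcam), BM8 and BM4 had a promoter peak at 1, BM3 at 2 and the other 5 libraries at 3. Of 3 basal markers, 7 libraries had a promoter peak only at Krt14, BM7 had one at Krt5 too, and Trp63 had none in any library. Of 4 fibroblast markers, BM2 and BM4 had a promoter peak at 4, BM6 and BM8 at 3, BM1 and BM7 at 2, BM5 at 1 and BM3 at 0. Their part in the results below was not tested.

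ATAC-seq marks DNA that the Tn5 transposase can reach, mostly the promoters of active genes and distal enhancers, so a peak list is a map of regulatory DNA in use. Mouse chromosome 12 carries the immunoglobulin heavy chain locus and the Serpina cluster of protease inhibitors near its distal end, and the imprinted Dlk1-Dio3 domain. It also carries genes of wide use such as Hif1a, Max, Fos, Akt1, Id2 and Dnmt3a.

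A region of chromosome 12 with a peak in BM8 and in at most 1 of the other 7 libraries is called carried by BM8 here. The sequences that follow are the central 200 bases of 6 such regions on the plus strand of GRCm38.p6, read from the RefSeq genome, and are shown because they had the highest scores in BM8 among the carried distal regions (the first 3) and the carried promoters (the last 3). Regions overlapping an annotated UTR, and the Dnmt3a region, which lies in an exon, were not printed. Capitals mark a match to 1 of 4 motifs searched on both strands, the AP-1 site (TGANTCA), the TEAD core (GGAATG), the RUNX core (TGTGGT) and the site of GATA factors (AGATAA).
Rnf144a intron, chr12:26394950-26395149: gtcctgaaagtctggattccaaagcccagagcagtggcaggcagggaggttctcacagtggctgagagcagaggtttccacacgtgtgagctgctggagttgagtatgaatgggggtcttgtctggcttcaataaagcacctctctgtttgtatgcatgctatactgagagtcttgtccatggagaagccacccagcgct
Scin intron, chr12:40113061-40113260: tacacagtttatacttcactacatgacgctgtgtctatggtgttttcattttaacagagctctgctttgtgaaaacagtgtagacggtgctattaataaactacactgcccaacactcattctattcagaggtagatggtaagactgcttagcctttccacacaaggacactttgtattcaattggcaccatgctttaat
1110008L16Rik intron, chr12:55349048-55349247: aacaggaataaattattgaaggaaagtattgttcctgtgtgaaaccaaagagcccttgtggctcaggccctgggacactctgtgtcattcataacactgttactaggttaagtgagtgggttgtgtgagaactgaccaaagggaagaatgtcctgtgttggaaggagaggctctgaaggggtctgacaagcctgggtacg
Zfyve26 promoter, chr12:79235727-79235926: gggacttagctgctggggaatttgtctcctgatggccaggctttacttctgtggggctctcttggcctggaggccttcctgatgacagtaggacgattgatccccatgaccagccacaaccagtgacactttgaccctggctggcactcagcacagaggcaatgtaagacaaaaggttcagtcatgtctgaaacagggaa
Pcnx promoter, chr12:81963096-81963295: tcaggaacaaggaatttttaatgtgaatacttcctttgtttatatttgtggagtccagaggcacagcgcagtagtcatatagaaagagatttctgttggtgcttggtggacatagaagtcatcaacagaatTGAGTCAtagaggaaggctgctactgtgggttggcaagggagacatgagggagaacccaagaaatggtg
Hdac9 promoter, chr12:34529290-34529489: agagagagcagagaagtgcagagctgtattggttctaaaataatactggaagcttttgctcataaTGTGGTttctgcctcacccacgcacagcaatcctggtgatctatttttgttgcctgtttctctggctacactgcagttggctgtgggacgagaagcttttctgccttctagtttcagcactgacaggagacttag

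Of these 6 windows, Pcnx held 1 AP-1 match and Hdac9 held 1 RUNX match, and the other 4 held none of the 4 motifs. Over the 2084 carried regions of chromosome 12, the central 200 bp held AP-1 in 22.5%, TEAD in 18.6%, RUNX in 21.4% and GATA in 3.60%. Over all 7928 regions of chromosome 12 the shares were 25.7%, 15.9%, 21.7% and 5.03%, and over the 169896 regions of the other autosomes 26.1%, 15.8%, 21.7% and 5.36%. Regions carried by BM8 on the other autosomes held the same motifs in 22.7%, 20.1%, 21.1% and 3.48%. The carried regions of chromosome 12 thus lay within 1.5 percentage points of carried regions elsewhere for each motif. Their median GC content was 48% on chromosome 12 and 48.5% elsewhere. Matches of different motifs may overlap, and a match is no evidence of binding.

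BM8 had 4866 peaks on chromosome 12, or 5.04% of its autosomal peaks. The share was 4.06% in BM1, 4.01% in BM2, 3.91% in BM3, 3.80% in BM4, 4.36% in BM5, 3.86% in BM6 and 4.72% in BM7. BM8 was thus highest and BM7, a Lats1-CKO luminal library, came next, while BM4, the other Lats1-CKO basal-like library, was lowest. The share of BM8 lay 0.94 percentage points above the mean of the other 7 libraries (4.10% ± 0.33, SD), and 0.90 points above it without BM3. The ratio of 1.23 to that mean was the highest of BM8 over the 19 autosomes, ahead of 1.16 on chromosome 4, and the ratio of BM7 on chromosome 12 was 1.14.

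**Figure D1:**
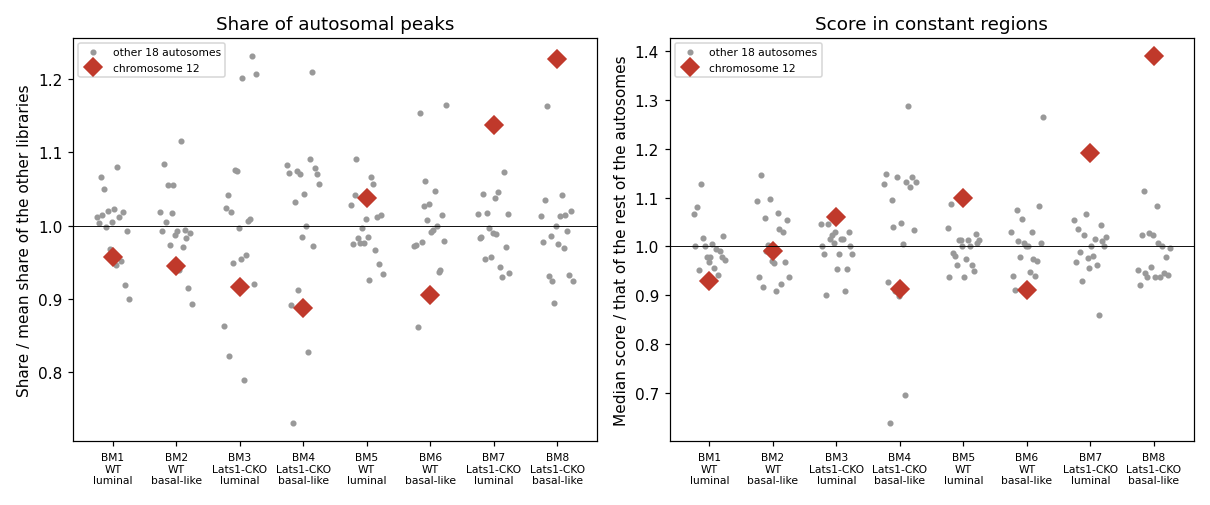
Each point is 1 autosome in 1 library, with chromosome 12 as a red diamond and the other 18 autosomes in grey. The left axis gives the share of autosomal peaks divided by the mean share of the other 7 libraries, and the right axis the median score of constant regions divided by that of the rest of the autosomes. Chromosome 12 is the highest point of BM8 in both panels, at 1.23 and 1.39.

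The share of BM8 was higher among its strongest peaks than among the rest. Among the highest-scoring quartile of its autosomal peaks 5.75% lay on chromosome 12, against 4.79%, 4.77% and 4.85% in the next 3 quartiles. The same quartile gave 5.02% in BM7, 4.91% in BM5, 4.43% in BM3, 4.02% in BM2, 3.89% in BM1, 3.68% in BM6 and 3.53% in BM4. When the number of peaks was set equal by keeping the 10000 with the highest scores in each library, BM8 had 6.70% on chromosome 12, BM7 5.49% and BM5 4.93%, and the other 5 lay between 3.26% and 4.08%. BM5, which had the smallest list after BM3 and BM6, thus came after BM8 and BM7 by strong peaks.

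The share was higher among distal than among promoter peaks. Of all autosomal peaks of BM8 more than 1 kb from a TSS, 5.34% lay on chromosome 12, against 4.10% of those within 1 kb. The other libraries had between 3.93% and 4.98% of their distal peaks there and between 3.40% and 3.95% of their promoter peaks, so BM8 was highest for both. In BM8 19.7% of the chromosome 12 peaks were promoter peaks, compared with 24.4% on the other autosomes. That gap, of -4.75 points, was the widest of the 8 libraries, and the other gaps ran from -4.39 points in BM7 to -2.56 points in BM6.

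Along the chromosome, the higher share of BM8 was spread over most of its length and was lower toward the distal end. In 5-Mb bins, BM8 was above the mean of the other libraries in 23 of 25 bins and above every other library in 17, of which 1 is the short last bin, with 4 peaks. With only the peaks above the median score of each library, BM8 was above every other library in 12 bins. If BM8 had had the mean share of the other libraries, 3962 peaks would have lain on the chromosome, so that 904 were in excess. The 5 bins with the largest excess held 40.1% of it. In the order of excess they held 405, 284, 572, 492 and 511 of the 7928 regions. Their ratios of BM8 to the mean of the others were 1.42, 1.74, 1.25, 1.27 and 1.24. The last 3 ratios were thus close to the median given next, and those bins were among the ones with most regions. In the 24 full bins the ratio of BM8 to the mean of the others had a median of 1.23 and ran from 0.776 at 115 to 120 Mb to 1.74 at 35 to 40 Mb. BM7 had an excess of 518 peaks, positive in 22 bins, and the excess of BM4 was -403.

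**Figure D2:**
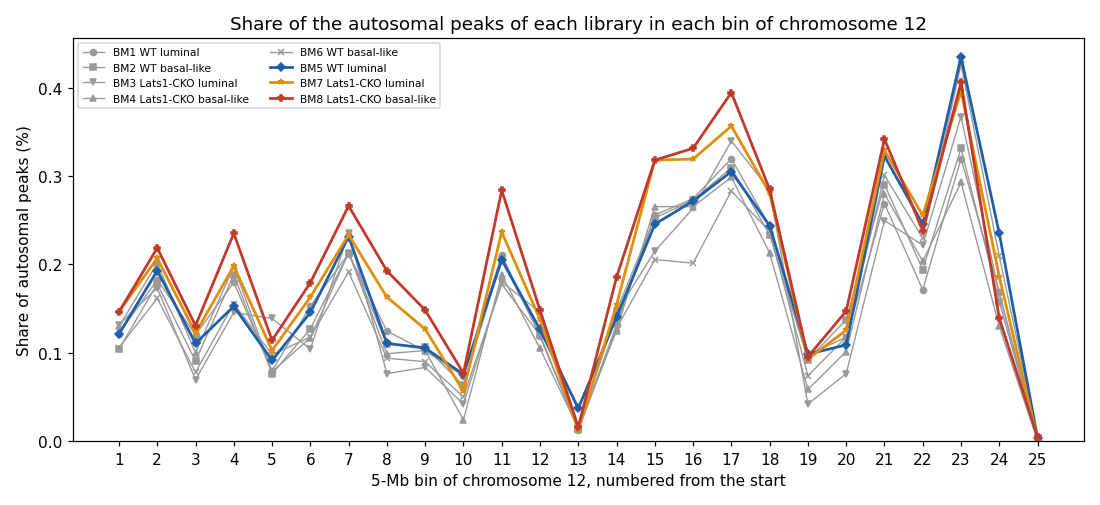
The share of the autosomal peaks of each library is plotted for 25 consecutive 5-Mb bins of chromosome 12, with BM8 in red, BM7 in orange, BM5 in blue and the other 5 libraries in grey. The BM8 line is on top in most bins up to bin 21 and falls among the other libraries in bins 22 to 24, where BM5 is at or near the top.

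In the bin at 50 to 55 Mb BM8 had 274 peaks, 80.4 above expectation. Its share there was 0.284%, against 0.211% in BM1, 0.206% in BM2, 0.180% in BM3, 0.188% in BM4, 0.205% in BM5, 0.177% in BM6 and 0.237% in BM7. All 7 other libraries lay below BM8, with BM7 nearest. The carried promoters of the bin with the highest BM8 percentile were those of Nubpl, an assembly factor of mitochondrial complex I, of Dtd2, a deacylase of mischarged tRNA, and of the neuronal transcription factor Npas3, at the percentiles 65.4, 47.2 and 43.3. Nubpl and Npas3 had their carried region in BM8 alone.

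The bin at 35 to 40 Mb had the largest ratio, with a share of 0.193% in BM8, 0.163% in BM7, 0.124% in BM1, 0.109% in BM2, 0.0762% in BM3, 0.0987% in BM4, 0.110% in BM5 and 0.0937% in BM6. BM8 was highest and BM7 next, in a bin that was picked by the excess of BM8. The median percentile of the BM8 peaks there was 38.3, the lowest of BM8 in the 24 full bins, so they were weak ones for this library. Carried promoters were those of the tetraspanin Tspan13 (BM8 alone, percentile 55.9) and of the diacylglycerol kinase Dgkb (BM8 38.3, BM7 16.3).

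At 80 to 85 Mb BM8 had 381 peaks and an excess of 75.9, with a share of 0.395% against 0.357% in BM7 and between 0.283% and 0.340% in the other 6. The carried promoters with the highest percentiles were those of the membrane protein Pcnx (92.7 in BM8, 68.2 in BM7), the Rap GTPase regulator Sipa1l1 (70.5 and 58.6) and the acyl-CoA thioesterase Acot6 (67.3 and 11.1). All of them were shared with BM7, and thus absent from the other 6 libraries by the definition of carried.

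At 70 to 75 Mb the excess of BM8 was 64.6 peaks and that of BM7 60.9. Carried promoters were those of the homeobox gene Six4 (41.5 in BM8, 39.2 in BM7), the centrosomal protein gene Nin (36.2, BM8 alone) and the formin gene Daam1 (34.0 in BM8, 31.8 in BM2). At 75 to 80 Mb BM8 had an excess of 62.3 peaks, and the leading carried promoters were those of Zfyve26, a protein of endosome and lysosome traffic, the guanine nucleotide exchange factor gene Plekhg3 and Max, the dimer partner of Myc. Carried refers to the region and not to the whole promoter, as Six4 and Max had a promoter peak in all 8 libraries. The Max region lay in an intron, 647 bp from a transcript start inside the gene. In these neighbouring bins BM7 had shares of 0.318% and 0.319%, next to 0.318% and 0.331% in BM8.

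**Figure D3:**
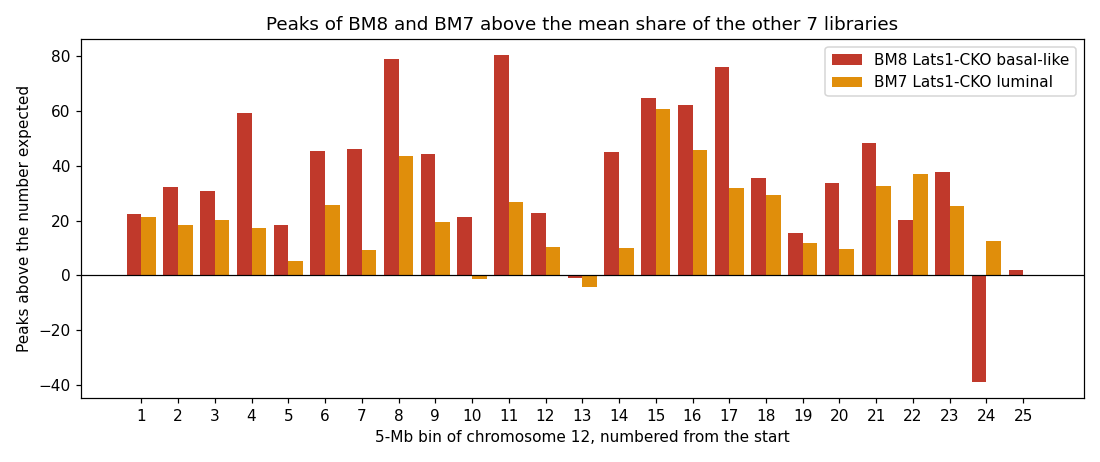
Bars give, for each 5-Mb bin of chromosome 12, the number of peaks of BM8 (red) and BM7 (orange) above the number expected from the mean share of the other 7 libraries. BM8 is positive in 23 of 25 bins and lies at -38.7 in bin 24, while BM7 is positive in 22.

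The distal end had another order of libraries. From 100 Mb to the end BM5 had the highest share, 1.24%, followed by BM6 and BM7 with 1.17% each, BM8 with 1.13%, BM3 with 1.00%, BM2 with 0.976%, BM1 with 0.929% and BM4 with 0.905%. Before 100 Mb BM8 had 3.91%, BM7 3.55% and the other 6 between 2.69% and 3.13%. The boundary at 100 Mb was chosen after the bins had been seen. The ratio of BM8 to the mean of the others was thus 1.28 before it and 1.07 after it, and that of BM5 was 0.986 and 1.19. At 115 to 120 Mb, BM8 had a share of 0.139% and only BM4 was lower, at 0.130%.

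The median score percentile of all chromosome 12 peaks did not follow the order of the shares. It was 50.2 in BM1, 51.5 in BM2, 49.8 in BM3, 48.9 in BM4, 53.2 in BM5, 48.6 in BM6, 51.2 in BM7 and 51.8 in BM8, and the other autosomes of the same library lay within 1.84 points of it in every library but BM5, where the gap was 5.05. Bin medians of BM8 ran from 38.3 at 35 to 40 Mb to 60.7 at 85 to 90 Mb in the full bins, and those of BM5 from 28.5 to 65.9, the latter at 110 to 115 Mb.

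Constant regions, with a peak in every library but the smallest list (BM3), hold the set of regions fixed between the 7 larger libraries. Chromosome 12 had 920 of them, 11.6% of its regions against 12.6% of all autosomal regions. Of these, 410 also had a peak in BM3, and the BM3 values rest on those alone. Their median percentile was 78.8 in BM1, 78.7 in BM2, 62.9 in BM3, 79.4 in BM4, 77.8 in BM5, 70.4 in BM6, 87.8 in BM7 and 90.6 in BM8. Relative to constant regions of the other autosomes in the same library this was 6.53 points higher in BM8, 3.98 in BM3, 3.78 in BM7 and 3.22 in BM5, and it differed by -0.28 in BM2, -2.04 in BM1, -2.45 in BM4 and -3.69 in BM6. In BM3, BM5, BM7 and BM8 chromosome 12 ranked first of the 19 autosomes by this value, and in BM1 it ranked last. In BM8 the other autosomes had medians between 82.6 and 86.5. The median score itself was 399 on chromosome 12 in BM8, 1.39 times that of the rest, and the ratio was 1.19 in BM7, 1.10 in BM5, 1.06 in BM3 and between 0.91 and 0.99 in the other 4.

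In the 19 bins with at least 20 constant regions, BM8 was above the rest of the autosomes in 17 and the highest of the 7 larger libraries in 11. Its bin medians differed from the rest by -2.05 to 11.3 points, with a median of 6.81. BM7 was above in 17 bins, with a median of 4.05 points, and BM4 in 6, with a median of -2.89. The bin at 35 to 40 Mb, where the share of BM8 was raised most, was the lowest of BM8 by constant regions. The number of peaks and the scores of constant regions thus did not point the same way in that bin. In BM5 the difference was 17.6 points at 105 to 110 Mb, 11.8 at 110 to 115 Mb and 19.4 at 115 to 120 Mb, and its median over the 19 bins was 0.246.

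**Figure D4:**
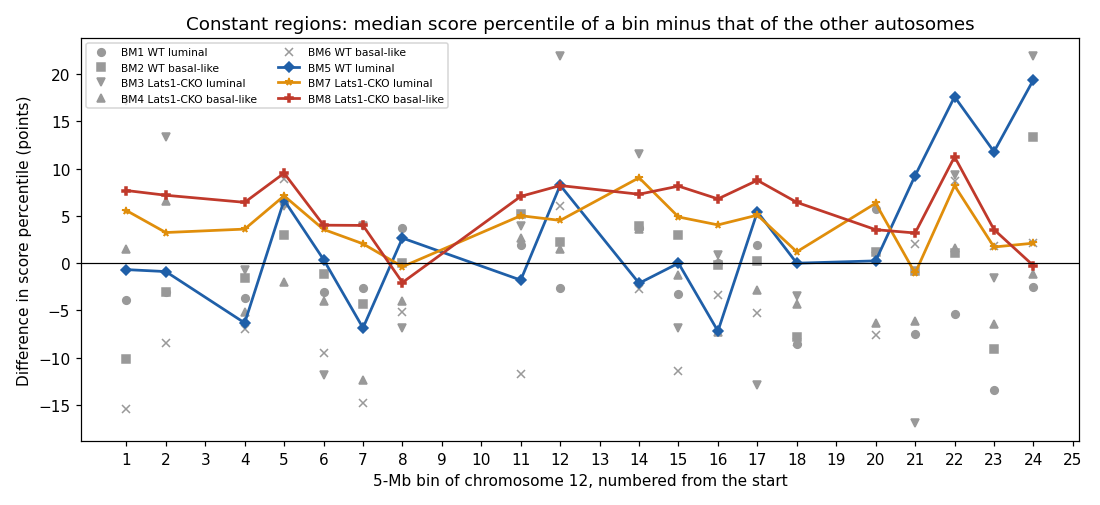
For each 5-Mb bin of chromosome 12 with at least 20 constant regions, points give the median score percentile of those regions minus that of the constant regions on the other autosomes, for each library (BM8 red, BM7 orange, BM5 blue, others grey). BM8 and BM7 are above 0 in 17 of 19 bins each, and BM5 rises to 19.4 points in bin 24.

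Genotype and population were each compared between 4 libraries and the other 4 with an exact permutation test (two-sided, adjusted over 6 tests, smallest possible p 0.0286). For constant regions, the mean difference from the other autosomes was 2.96 ± 3.82 points (SD, n = 4) in Lats1-CKO and -0.70 ± 2.96 in WT libraries (exact permutation p = 0.171, adjusted p = 0.643). It was 0.027 ± 4.56 in basal-like and 2.24 ± 2.87 in luminal libraries (exact permutation p = 0.429, adjusted p = 0.643). With only constant regions that had a peak in all 8 libraries, Lats1-CKO minus WT was 1.70 points (exact permutation p = 0.457) in place of 3.66. Basal-like minus luminal was then -2.16 points (exact permutation p = 0.314) in place of -2.21. The median percentile of all chromosome 12 peaks and their promoter share relative to the other autosomes gave exact permutation p-values from 0.286 to 0.686. None of the 6 differences passed the threshold of 0.05. After adjustment over 6 tests, a single difference could not have passed even at the smallest possible p. The adjusted values therefore say little about the absence of a difference. BM8 is in the Lats1-CKO and the basal-like group, and the chromosome was selected on the BM8 share, which was higher among its strongest peaks. The scores are thus not independent of that selection, and the p-values are description only. Without BM8, constant regions gave 2.47 points for Lats1-CKO minus WT and -4.51 for basal-like minus luminal. The pair of Lats1-CKO basal-like libraries differed by sign in constant regions, with 6.53 points in BM8 and -2.45 in BM4. The 4 groups of 2 libraries were not tested against each other.

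The 7928 regions were mostly private to few libraries. A single library had a peak in 3539 of them (44.6%, against 44.4% on the other autosomes), 2 libraries in 1281, 3 to 7 libraries in 718, 554, 411, 447 and 568, and all 8 in 410. Regions found in 1 library alone numbered 1233 in BM8, 687 in BM7, 630 in BM4, 501 in BM5, 199 in BM1, 168 in BM2, 91 in BM6 and 30 in BM3. They were 25.7% of the chromosome 12 regions of BM8, against 21.5% on its other autosomes, and 20.1% of those of BM4, against 23.9%.

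Carried by BM8 were 2084 regions, or 26.3% of those on chromosome 12, where the background over all autosomal regions was 19.6%. This share was the highest of the 19 autosomes, of which the others ran from 16.4% to 24.9%, but as the chromosome was selected on BM8 nothing is read from it. BM7 had a peak in 556 of the carried regions and BM4 in 156, while each of the other 5 had one in 43 or fewer. On the other autosomes 32718 regions were carried by BM8, with a BM7 peak in 7184 and a BM4 peak in 3402. BM7 was thus the most frequent partner of BM8 there too. The carried regions of chromosome 12 were weak as a set, with a median BM8 percentile of 29.2, the same as on the other autosomes. Only 10.5% lay within 1 kb of a TSS, against 16.3% of all chromosome 12 regions. The same held on the other autosomes, with 12.8% of the carried regions against 19.1% of all regions. Among the carried regions of chromosome 12 with the highest BM8 percentiles the overlap with BM7 was larger. A BM7 peak was present in 10 of the highest 10, 86 of the highest 100 and 276 of the highest 500. This overlap was not counted on the other autosomes.

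Regions with a peak in BM7 and BM8 and in no other library numbered 556, or 7.01% of chromosome 12, with a background of 4.35% and other autosomes between 3.31% and 5.56%. Regions with a peak in both Lats1-CKO basal-like libraries and neither WT basal-like library numbered 487 (6.14%, background 5.12%), and those of the reverse pattern 54 (0.681%, background 0.881%). Regions with a peak in BM4, BM7 and BM8 and in no WT library numbered 177 (2.23%, background 1.5%). Regions of all 4 WT libraries that were absent from BM4, BM7 and BM8 numbered 5 (0.0631%, background 0.0652%). All of these patterns use BM8, on which the chromosome was selected, so the shares are given beside their background and not read further.

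The carried region with the highest BM8 percentile lay in an intron of Rnf144a, an E3 ubiquitin ligase gene, at chr12:26394841-26395259, with 99.9 in BM8 and 95.2 in BM7. The next was an intronic region of Scin, which encodes an actin-severing protein, with 99.4 and 90.1. A region in a UTR exon of Tedc1, a gene for a tubulin complex, had 99.0 in BM8 and 99.6 in BM7. These were among the strongest peaks of both libraries, though they were picked by BM8 percentile. As carried regions with a BM7 peak, they had none in the other 6 libraries by definition. The others of the highest 10 lay in introns of 1110008L16Rik, Rin3, Ston2, Sipa1l1, Flvcr2 and Sec23a and in intergenic sequence 3877 bp from the nearest TSS, that of Mfsd2b.

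Carried regions lay along the whole chromosome, and the 100-kb windows with most of them were picked by that count, which favours BM8. The first, chr12:111700001-111800000, held the TSSs of Klc1, a kinesin light chain, of Bag5, a cochaperone, and of the mitochondrial gene Apopt1. Of its 34 regions 21 were carried, and BM8 had a peak in 30, BM7 in 15, BM5 in 10, BM4 in 9, BM1 and BM2 in 8 each, BM6 in 7 and BM3 in 3. BM7 came next to BM8 there, as in the share of the chromosome. The window at 26.3 Mb, over Rnf144a, held 14 carried regions of 18, with 17 in BM8, 7 in BM7, 5 in BM4, 2 in BM1 and 0 in the other 4. The next window, at 26.4 Mb, with Rnf144a and the interferon-induced genes Cmpk2 and Rsad2, held 12 of 21.

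Sipa1l1, at 82.3 Mb, also had 14 carried regions of 18, where BM8 had 17, BM7 10, BM4 2 and the others 1 or 0. The window at 70.8 Mb over Frmd6, which encodes an upstream regulator of the Hippo pathway, held 11 of 24, with 19 in BM8, 10 in BM4 and BM7, 9 in BM2, 8 in BM1 and BM5, 4 in BM6 and 2 in BM3. A window at 113.1 Mb, with Crip1, Crip2, Mta1, Tedc1 and Tmem121, tied with it at 11 of 28, and there BM7 had 22 regions to 24 in BM8.

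By the number of promoters with a peak, BM8 did not stand out. Of 643 protein-coding genes on chromosome 12, a peak within 1 kb of a TSS was present for 451 in BM8, 458 in BM7, 434 in BM1, 424 in BM2, 422 in BM4, 402 in BM5, 393 in BM6 and 271 in BM3. BM7 had the most and BM8 came next, as on the other autosomes. The shares were 71.2% in BM7 and 70.1% in BM8, against 59.7% and 58.8% on the other autosomes. Each of the other libraries also had a higher share on chromosome 12. A promoter peak in BM8 alone was found for 5 genes, compared with 8 in BM4, 7 in BM5, 5 in BM7 and 3 or fewer in the other libraries. Of the carried regions 156 lay within 1 kb of a coding TSS, of 130 genes, many of which have other promoter peaks in other libraries.

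Promoter scores, in contrast, were high in BM8. For the 339 genes with a promoter peak in each of the 7 larger libraries, BM8 had the highest percentile for 163 (48.1%). On the other autosomes BM8 was highest for 19.2% of 9011 such genes, with single autosomes between 10.5% and 36.3%. The median promoter percentile on chromosome 12 was 95.8 in BM8 and 94.3 in BM7, against 88.8 and 89.6 on the other autosomes, and 85.8 in BM5, against 80.3. In BM1, BM2, BM4 and BM6 the chromosome 12 medians were 90.4, 85.4, 86.5 and 82.7, against 88.9, 83.0, 87.2 and 83.8.

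The carried promoter with the highest BM8 percentile was that of Zfyve26, at chr12:79235631-79236023, 650 bp from a TSS in an intron, with 97.2 in BM8 and 87.7 in BM7. Pcnx followed with 92.7 and 68.2. Dnmt3a, a de novo DNA methyltransferase, had a carried region 515 bp from a TSS with 87.6 in BM8 and 40.0 in BM7. Hdac9, a class IIa histone deacetylase, had 85.2 and 43.3. In each of these BM8 was above BM7, which the choice by BM8 percentile favours. As carried regions with a BM7 peak, they had none in any other library by definition.

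Serpina3n, an acute-phase protease inhibitor, was the only one of the 10 in BM8 alone, with a region 16 bp from its TSS at the percentile 83.4. Others were Plekhg3 (82.2 in BM8, 32.7 in BM7), the actin regulator Evl (80.6 and 76.0), Mia2, a gene of protein export from the endoplasmic reticulum (79.7 and 68.8), and the kinase gene Akt1 (79.7 and 20.3). The Akt1 region, chr12:112667628-112667854, lay in an intron, 260 bp from a transcript start inside the gene. The outermost start of Akt1 is at 112674884. The 10 promoters were spread over bins 1 to 23.

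Among 11 epithelial and hormone-sensing genes of chromosome 12, a promoter peak was present for 7 in BM8, for 9 in BM7, for 6 in BM3 and for 7 or 8 in the others. Foxa1, the pioneer factor of luminal cells, had the percentile 87.2 in BM1, 72.4 in BM2, 5.12 in BM4, 69.2 in BM5 and 74.0 in BM7, and no peak in BM3, BM6 and BM8. BM8 therefore lacked the Foxa1 promoter peak although the chromosome as a whole was high. Esr2, encoding estrogen receptor beta, had a peak in BM4, BM5, BM6 and BM7, between 38.5 and 59.5, and Greb1, an estrogen-induced gene, had none. Grhl1, an epithelial transcription factor, had a peak in all 8 libraries, at 92.9, 96.4, 75.3, 97.1, 96.9, 95.2, 99.6 and 99.1 from BM1 to BM8.

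Of 6 AP-1 and immediate-early genes, 5 had a promoter peak in BM8, BM7, BM6, BM4, BM2 and BM1 and 4 in BM5 and BM3. Fos, a subunit of AP-1, had 93.2 in BM8, 84.9 in BM7, 82.8 in BM4 and 77.7 in BM6, and 61.4, 49.3 and 54.1 in BM1, BM2 and BM3, and no peak in BM5. Jdp2, an AP-1 repressor, was highest in BM7 (84.2), with 74.3 in BM8 and between 43.9 and 79.5 in the others. Zfp36l1, a decay factor of mRNA, was highest in BM1 (81.6), with 67.7 in BM8, and Batf had no peak. BM8 was thus highest for Fos and not for Jdp2 or Zfp36l1.

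Of 10 mesenchymal, matrix and TGF-beta genes, 8 had a promoter peak in BM8, 9 in BM1 and from 6 to 8 in the others. Twist1, a driver of epithelial-mesenchymal transition, had 79.4 in BM8, 68.3 in BM1, 66.1 in BM2, 61.3 in BM3, 64.7 in BM4, 47.1 in BM6 and 52.3 in BM7, and none in BM5. BM8 was thus highest for Twist1. Six4 was highest in BM7 (98.8), with 97.3 in BM8, and Meox2 had no peak.

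The 15 growth and housekeeping genes had a promoter peak for 14 in BM8, BM7, BM4, BM2 and BM1, for 13 in BM5, 12 in BM6 and 11 in BM3. Of the 12 with a peak in each of the 7 larger libraries, BM8 was highest for 7, next to 48.1% of all such genes of chromosome 12. It was highest for 3 of 6 such epithelial genes, 2 of 4 AP-1 genes and 2 of 5 mesenchymal genes. The median of the 12 growth genes was 99.2 in BM8, 97.9 in BM7, 96.1 in BM1, 92.0 in BM2, 91.9 in BM5, 88.7 in BM4 and 88.7 in BM6. Akt1 had 79.7 in BM8, 65.9 in BM4 and 46.9 in BM7, 30.3, 15.7 and 31.4 in BM1, BM2 and BM3, and none in BM5 and BM6. Mycn, a Myc family gene, had 92.0 in BM8 and between 8.20 and 81.0 in 6 others, and none in BM3. Max had 99.1 in BM8, 98.3 in BM7 and between 88.4 and 98.2 in the other 6, and Odc1, the first enzyme of polyamine synthesis, had 88.3 in BM8 and was highest in BM1 (90.1).

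**Figure D5:**
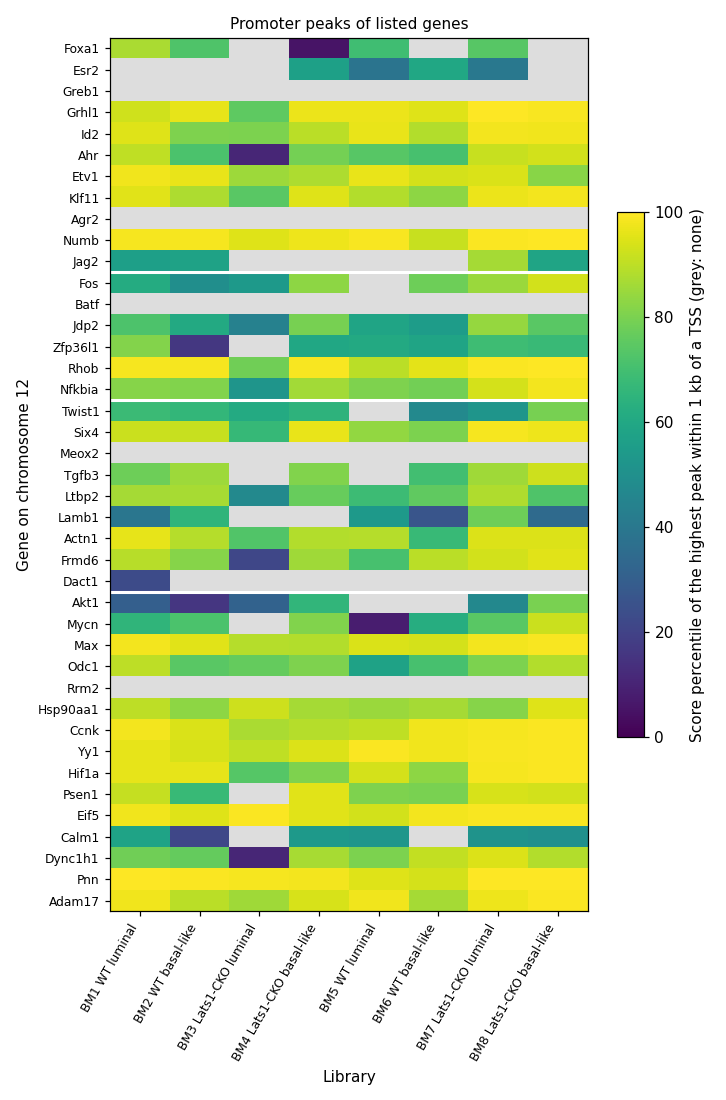
Rows are genes of 4 lists on chromosome 12 (epithelial, AP-1, mesenchymal and growth, from top to bottom), columns the 8 libraries, and colour the score percentile of the highest peak within 1 kb of a TSS, with grey for no peak. BM8 has no peak at Foxa1 and Esr2. It is highest for 7 of the 12 growth genes with a peak in each of the 7 larger libraries, next to 48.1% of all such genes of chromosome 12.

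At genes of other tissues and at gene clusters BM8 was not set apart by the number of peaks. Of 7 neural genes 6 had a promoter peak in BM8, but 6 also in BM7, BM1 and BM2 and 3 or 4 in the others. Nova1, a neuronal splicing factor, had 93.5 in BM8 and 92.9 in BM1. Npas3 had 43.3 in BM8, 63.6 in BM7 and 36.9 in BM1. Nrxn3, a synaptic adhesion gene, had 93.9 in BM8 and was highest in BM2, at 99.8. Of 9 liver and thyroid genes 2 had a promoter peak in BM8, Apob (47.9) and Pax9 (72.9), of which Pax9 had one in all 8 libraries. Bcl11b, a T-cell factor, had a peak in BM7 (55.7) and BM8 (8.57) and Tcl1 in none.

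In the imprinted Dlk1-Dio3 domain only Rian, of 6 genes, had a promoter peak in BM8 (65.4), while BM1, BM2, BM4, BM5, BM6 and BM7 had one at 2 genes and BM3 at none. Rian, a noncoding RNA gene, was highest in BM1 (76.1) and BM5 (75.4), Dlk1, a Notch pathway ligand, had a peak only in BM5 (38.5), Meg3 only weak ones in 4 libraries, up to 15.0, and Rtl1 none. In the span of the Serpina genes (chr12:103614786-104414329) BM8 had 37 peaks, BM4 39, BM7 34, BM2 24, BM1 20, BM5 19, BM6 15 and BM3 5. In the span of the immunoglobulin heavy chain genes (chr12:113254830-116010093), BM8 had 5 peaks, BM5 21, BM7 17, BM4 16, BM6 15, BM3 6, BM2 5 and BM1 4. BM8 was thus among the lowest there and had a promoter peak at none of 217 Igh gene segments. Both families hold near-identical copies, so with unique alignment their counts are uncertain.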

How the data were processed

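The authors sorted and cultured the cells, made ATAC-seq libraries, trimmed reads with cutadapt, aligned them uniquely to mm10 with Bowtie 1.0.0, removed duplicates with Picard 2.3.0, called peaks per library with MACS2 and removed blacklisted ones. The submitters' processing notes name MACS2 2.1.1.20160309, and the study's methods another version. The authors deposited 1 peak list per library with a score per peak, at least 13 in each and not normalized between libraries. Depth per library is unknown, so no counting interval is given.

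Percentiles were ranked over all peaks of a library, ties sharing a mean rank. TSSs were those of all transcripts in GENCODE M21, and sequences came from RefSeq GRCm38.p6, whose chromosome 12 bounds all regions. Named genes are up to 4 of each list in listed order, the leading carried promoters of the 5 bins with most excess, the 10 highest carried promoters and the windows with most carried regions. A few named items are not reported here. Members and lists were chosen with earlier results of these data known. Comparisons used two-sided exact permutation tests with Benjamini-Hochberg adjustment. Steps were tested on simulated lists. Alternatives left out each library, used fewer peaks, other bins, windows, merging and percentiles. Software was scipy 1.17.1, matplotlib 3.10.9, numpy 2.4.6 and pandas 2.3.3 under python 3.11.15.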

Additional observations from a re-analysis of the deposited data

Results flagged for a closer look

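In 16 groups of 4 libraries (each genotype and each population, for the share of peaks on chromosome 12, the median percentile, the promoter share and the constant regions), the gap of the highest and lowest library was compared with the range of the group. One lay apart from the other 3 beyond Dixon's 95% critical value. BM1 was lowest of the luminal libraries by the percentile of constant regions of chromosome 12 relative to the other autosomes, at -2.04 points, where the others lay between 3.22 and 3.98. Chance gives such a gap in about 1 of 20 groups. For the share of peaks, which chose the chromosome, this rate does not hold and the gaps are description only. No explanation was tested.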

How the results depend on the processing

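Of 70 alternative values of the 6 tests, 66 kept their direction and none passed the threshold of 0.05, with exact permutation p-values between 0.0571 and 1. With 1 library left out, 0.0571 is the smallest p the exact permutation test can give, so those alternatives could not pass. It was reached for constant regions without BM4 (Lats1-CKO minus WT, 5.27 points). The promoter share without BM8 also reached it (basal-like minus luminal, 0.82 points). The 4 alternatives that did not keep their direction turned in sign, always for Lats1-CKO minus WT. The median percentile (-0.85 points) became 0.41 without WT luminal replicate 2 (BM5), 2.98 with the 10000 highest-scoring peaks and 3.41 with peaks above the median score, and the promoter share (-0.57 points) became 0.70 with peaks above the median score. With 1 library left out, the 6 differences lay, in the order median percentile, promoter share and constant regions and each for Lats1-CKO minus WT and then basal-like minus luminal, at -1.76 to 0.41, -2.07 to -0.33, -0.92 to -0.26, 0.10 to 0.82, 2.36 to 5.27 and -4.51 to -1.08 points. The difference of the BM8 share from the other libraries moved from 0.94 to 2.57 points with the 10000 highest-scoring peaks, and lay between 0.89 and 1.04 with another library left out. The bins above every other library numbered 17 of 25, 12 with peaks above the median score, 14 with the 10000 and 15 with the 50000 highest-scoring peaks, and 26 of 60 with 2-Mb bins and 11 of 13 with 10-Mb bins, where the number of bins differs by construction. The cause of the other changes was not tested. Among peaks of equal score, those kept at a limit of peak number were drawn at random.

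The lists hold no reads, so depth limits every statement on the absence of a peak. Leaving out BM3, the smallest list, moved the share difference to 0.90 points. Each group has 2 libraries, and 1 unnamed Lats1-CKO luminal replicate was dropped by the study. The chromosome and the lists were chosen with results known, so no count here is independent evidence. No paired analysis was possible because the labels give no replicate numbers or pairing, and the replicate numbers used here follow accession order and only name a library.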
